A study of Homo sapiens with 12 samples.

Results

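The transcriptomes of 4 human lung adenocarcinoma cell lines were compared between cells kept for 1 day without attachment and cells in ordinary attached culture. The 8 libraries that carry these labels were taken from a series of 12, and 17395 of the 60715 genes in the table had enough counts to be tested. The detached group comprised HCC4006, LC-2/ad, NCI-H2009 and NCI-H2228 cells that had been lifted with trypsin, placed in ultra-low attachment plates and harvested on day 1. The attached group comprised the same 4 lines in standard culture, with no treatment and no time stated. The medium of both groups was RPMI-1640, to which 10% fetal bovine serum, penicillin and streptomycin were added. A RET fusion is known in LC-2/ad, an ALK fusion in NCI-H2228 and an activating EGFR deletion in HCC4006. Each line contributed 1 library to each state, so the lines served as the replicates and no line has a repeat of its own. Loss of attachment, trypsin treatment, replating and time in culture cannot be told apart in this design.

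Epithelial cells normally read their attachment through integrins, focal adhesions and the actin cytoskeleton, which feed growth factor signaling, the YAP and TAZ coactivators and the cell division cycle. Cells that lose their support often stop dividing or die by anoikis, while carcinoma cells can survive as floating clusters. In such cells lysosomes and autophagy are known as routes by which nutrients are recovered when uptake or signaling falls.

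Library totals lay between 31134420 and 41882024 estimated counts, and between 13464 and 14173 genes reached 1 TPM (a level scaled to gene length and library size). The epithelial identity in the labels was borne out by its markers in all 8 libraries. EPCAM, an epithelial adhesion protein, stood between 204 and 1268 TPM, and KRT19, a simple epithelial keratin, between 1509 and 6767 TPM. NKX2-1, the lineage transcription factor of the lung, stood between 27.2 and 72.9 TPM. Other markers of this list differed more between lines. NAPSA ranged from 1.90 TPM in attached LC-2/ad to 221.2 TPM in detached HCC4006. MUC1 ranged from 1.74 TPM in attached NCI-H2009 to 121 TPM in detached NCI-H2228. Markers of other cell types that culture could hold differed in level. MS4A1 and TYROBP of leukocytes and EMCN of endothelium were at 0 in all 8 libraries, and PTPRC, which marks all leukocytes, reached 0.19 TPM at most. Only 6 of 12 leukocyte, 4 of 10 fibroblast and 3 of 7 endothelial markers had enough counts to be tested. Summed over all markers of a list, tested or not, leukocyte genes ranged from 34.7 to 88.1 TPM in detached cells and from 7.02 to 39.8 TPM in attached cells, with CD14 at 1.27 to 41.1 TPM and CD68 at 17.5 to 59.3 TPM in detached cells and 0.193 to 16.3 TPM and 2.65 to 21.7 TPM in attached cells. The part of these markers in the results was not tested. Summed in the same way, fibroblast genes ranged from 7.13 to 183.7 TPM in detached and from 7.48 to 378.7 TPM in attached cells. COL1A1 was the highest of them, with 149.6 TPM in detached and 347.2 TPM in attached NCI-H2228. FAP had 33.6 and 29.2 TPM in that line, and LUM had 23.9 TPM in detached and 43.4 TPM in attached LC-2/ad. Endothelial genes summed to 2.01 to 4.63 TPM in detached cells and 0.602 to 2.57 TPM in attached cells.

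The detached NCI-H2009 library stood apart from the other 7. It had the highest total and the fewest genes at 1 TPM. In this line the difference between detached and attached cells moved with the GC content of the transcript (Spearman correlation across genes 0.33), which it did hardly or not in LC-2/ad (0.08), NCI-H2228 (0.09) and HCC4006 (-0.01). Genes are not independent replicates, and these correlations are descriptions. With genes split by GC content into 5 groups of equal size, the median log2 difference in NCI-H2009 was -0.75 in the group with the lowest GC content and 0.33 in that with the highest. Set against the mean of the other lines in the same state, the detached NCI-H2009 library correlated with GC content at 0.21 and the attached one at -0.07. The part that GC content played in the results was not tested, and values without NCI-H2009 are given for the leading genes and for lists whose median moves by over 1.5 times.

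**Figure D1:**
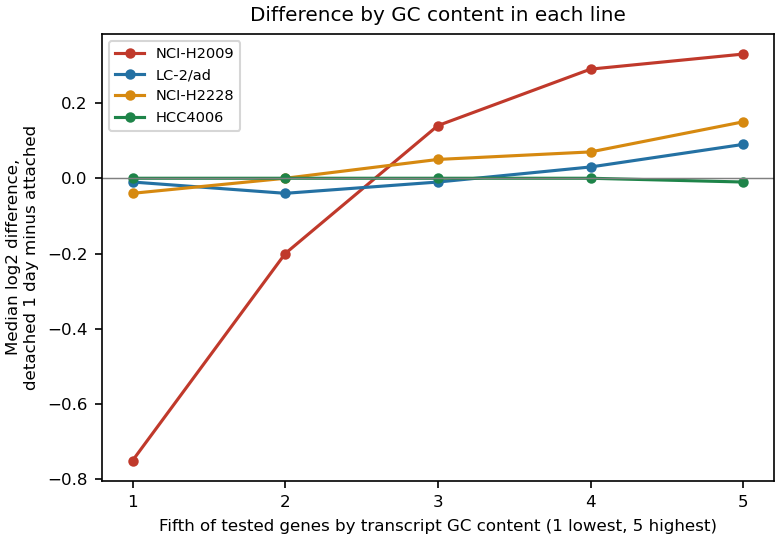
Median difference of log2 CPM (counts scaled to library size, detached 1 day minus attached, y axis) in 5 groups of tested genes by GC content (x axis, from the lowest to the highest), 1 line per cell line. NCI-H2009 runs from -0.75 to 0.33, and the 3 other lines stay between -0.04 and 0.15.

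After 1 day without attachment, the genes that fell included PLK1, KIF14, ANLN and CCNA2 of cell division, the lamin genes LMNB1 and LMNB2, and CAV1 of the caveolar coat. Those that rose included the Rag GTPase gene RRAGD, the histone genes H2AC18 and H2AC19, and LY96. In edgeR's quasi-likelihood test with the cell line as a block, 85 genes passed an adjusted p of 0.05, which is 0.489% of the genes tested. Of these, 26 genes were higher (0.149%) and 59 were lower (0.339%). All 85 code for proteins, and none of them moved in opposite directions between lines. The rises had log2 changes of up to 2.98 and a median of 1.58, and the falls reached -3.16 with a median of -1.70, against a median of 0.01 for all genes tested. The calls lay at the threshold: the edgeR adjusted p was 0.0496 for 25 of the 26 rises and 58 of the 59 falls, with H2AC19 (0.0157) and MT2A (0.0312) below it. At an unadjusted p of 0.05, 3418 genes passed (19.6% of those tested).

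The 85 calls depended on the 12-library fit with the block. None passed in the fit without the replicate block, where 825 genes reached an unadjusted p of 0.05, none in the fit of the 8 libraries alone, and none when any 1 line was left out. DESeq2's Wald test called 1695 genes, among them all of the 85. Without NCI-H2009 the 85 genes kept their sign and an unadjusted p under 0.05 in edgeR, and the median log2 change was 1.45 instead of 1.58 for the rises and -1.56 instead of -1.70 for the falls. The 85 genes were chosen by p from these same libraries and had the same sign in each line. Their kept sign and p are therefore a description and give no separate support. With the GC and length trend of each library removed, 19 of the 26 rises and 54 of the 59 falls passed again, with medians of 1.34 and -1.72. Median GC content was 56.1% for the rises, 45.6% for the falls and 48.8% for all genes tested.

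**Figure D2:**
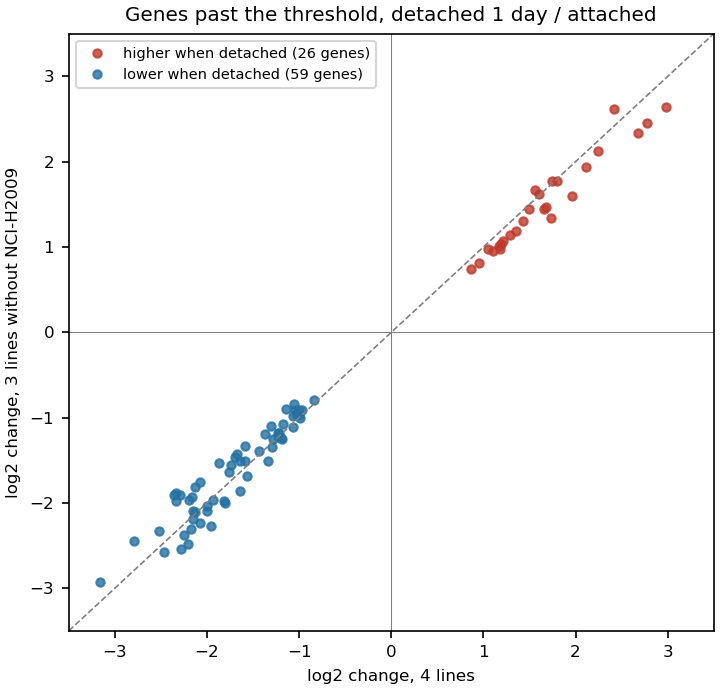
Log2 change of the 85 genes past the threshold in 4 lines (x axis) and in 3 lines without NCI-H2009 (y axis), detached 1 day over attached, with the dashed line marking equal values. The 26 higher and 59 lower genes were chosen from these same libraries with the same sign in each line, so a kept sign is no separate support. Their medians are 1.45 and -1.56 without NCI-H2009.

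The levels of the 2 states were often separate among the falls and seldom among the rises. The highest detached library was below the lowest attached library for 43 of the 59 falls, and 505 genes (2.9%) showed this among all tested. The lowest detached library was above the highest attached one for 5 of the 26 rises, against 165 genes (0.949%) among all tested. A change of at least 2-fold in each of the 4 lines was seen in 33 of the 59 falls and 12 of the 26 rises, and in 111 (0.638%) and 127 (0.73%) of all genes. These counts come from the same contrast as the calls and are given as a description. Over all genes tested, 17.1% were higher and 16.5% were lower in each of the 4 lines, which is the background for the list counts below. Values of single libraries are given below in a fixed order of the lines: NCI-H2009 first, LC-2/ad next, then NCI-H2228, with HCC4006 last.

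Genes that carry cells through mitosis were frequent among the falls, and 18 of the 59 belong to lists of cell division genes that hold 133 of the genes tested. PLK1, a kinase that drives entry into and passage through mitosis, had 57.8, 60.8, 21.7 and 52.4 TPM in detached cells and 225, 179, 206 and 349 TPM in attached cells. No detached library came near the lowest attached one. Its log2 change was -2.28 ± 0.36 (SE, edgeR adjusted p 0.0496), and -2.54 without NCI-H2009. The aurora kinase gene AURKA had 36.6, 47.3, 12.5 and 55.6 TPM in detached cells and 129, 141, 84.2 and 198 TPM in attached cells. It was lower in each line, and most so in NCI-H2228, where the difference was -2.70. The list of mitotic kinases and checkpoint genes had 16 of 16 members lower in the 4 lines, of which 6 passed, with a median log2 change of -1.60.

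Mitotic kinesins, the motors that move chromosomes and build the midzone, had the lowest median of any list (-1.81), with 13 of 13 members lower in the 4 lines and 2 past the threshold. Without NCI-H2009 the kinesin median was -1.674, against -1.673 for cytokinesis genes. With the GC and length trend removed it was -1.595, and mitotic kinases and checkpoint genes (-1.683) and cytokinesis genes (-1.677) were lower. KIF14, which acts at the midbody, had 0.326, 2.45, 0.664 and 1.61 TPM in detached cells and 5.75, 5.97, 5.63 and 4.93 TPM in attached cells. The attached libraries were nearly level and the detached ones were spread widely, with the lowest in NCI-H2009. Its log2 change of -2.36 ± 0.41 was -1.90 without that line. KIF23, the midzone motor of the centralspindlin complex, had 7.01, 20.9, 3.98 and 12.3 TPM in detached cells and 64.6, 41.2, 40.7 and 42.7 TPM in attached cells. KIF4A (-1.57 ± 0.30, edgeR adjusted p 0.0604) and KIF18B (-2.20 ± 0.43, edgeR adjusted p 0.0621) did not pass.

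Cytokinesis genes held 6 called falls among 13 tested, with 12 lower in the 4 lines and a median of -1.70. ANLN, the anillin scaffold of the contractile ring, had 6.8, 46.4, 11.9 and 33.8 TPM in detached cells and 105, 118, 97.7 and 97.5 TPM in attached cells. ARHGAP11A, a RhoA regulator at the cleavage furrow, had 2.61, 9.54, 4.04 and 9.17 TPM in detached cells and 40.9, 26.5, 23.6 and 25.1 TPM in attached cells. CEP55, which recruits the abscission machinery, had 11.9, 31.4, 7.83 and 20.1 TPM in detached cells and 66.5, 56.5, 51.7 and 53.8 TPM in attached cells. In each of these 3 genes LC-2/ad kept the highest detached level, and NCI-H2009 or NCI-H2228 the lowest.

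Further large falls have roles in division. DLGAP5, a spindle protein, had 3.99, 31.2, 11.3 and 28.1 TPM in detached cells and 74.7, 77.7, 67 and 82.8 TPM in attached cells. PBK, a mitotic kinase, had 7.26, 11.9, 7.22 and 8.9 TPM in detached cells and 32.3, 34.7, 77.1 and 33.6 TPM in attached cells. CDCA2, which brings a phosphatase to chromatin at mitotic exit, had 1.98, 7.37, 4.41 and 4.65 TPM in detached cells and 23.4, 20.5, 32.5 and 12.2 TPM in attached cells. All 3 were separate between the states. DBF4B, an activator of the replication kinase CDC7, had 1.77, 1.61, 1.06 and 0.433 TPM in detached cells and 8.15, 8.4, 3.56 and 2.24 TPM in attached cells. DEPDC1 had 4.55, 15.1, 6.06 and 13.5 TPM in detached cells and 43.9, 38.3, 30.4 and 36.4 TPM in attached cells, and it overlaps an antisense gene. FAM72D had 3.75, 1.66, 0.578 and 1.52 TPM in detached cells and 18.3, 6.46, 8.25 and 4.92 TPM in attached cells, but it has near-identical copies, among them FAM72A, which also fell. Other falls with roles in division were BUB1, NEK2, BORA, SPDL1, HMMR, PRR11, GTSE1, PSRC1 and TUBGCP3, with log2 changes between -2.08 and -1.19.

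The cyclins of late cell cycle phases fell with these genes. CCNB1, the mitotic cyclin B, had 156, 158, 64.2 and 60.3 TPM in detached cells and 477, 434, 517 and 308 TPM in attached cells, a log2 change of -1.96 ± 0.35 (edgeR adjusted p 0.0496). CCNA2, the cyclin of S phase and G2, had 23, 48.9, 8.23 and 20.9 TPM in detached cells and 107, 121, 73.5 and 73.5 TPM in attached cells, 4.01-fold lower in the fit. Both were separate between the states. CDC20, the activator of the anaphase-promoting complex, averaged 86.8 ± 62.9 TPM in detached cells and 247 ± 53.4 TPM in attached cells (SD, n = 4 each) and did not pass (edgeR adjusted p 0.0881). The list of cyclins and anaphase-promoting complex genes had 12 of 15 members lower in the 4 lines and a median of -1.06.

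Kinetochore and centromere genes had 21 of 22 members lower in the 4 lines, a median of -1.19 and 1 call. That call was MIS18A, a factor for loading the centromeric histone, at -1.19 ± 0.21. ESPL1, the separase that cleaves cohesin, was the 1 call among 13 condensin and cohesin genes, with means of 2.21 TPM in detached cells and 8.30 TPM in attached cells, and the median of these genes was -0.94. Genes of DNA replication had a median nearer to that of all genes (-0.53), with 12 of 25 lower in the 4 lines. The only call of this list was GINS1, a subunit of the replicative helicase (-1.22 ± 0.22). POLD2, a subunit of DNA polymerase delta that is not on the list, also passed (-0.84 ± 0.14, edgeR adjusted p 0.0496). The replication median was -1.59 in NCI-H2228 and between -0.37 and -0.07 in the other lines. Of 18 tested genes for CDK inhibitors and quiescence none passed in edgeR; 7 were higher in the 4 lines, the median was 0.45 (0.25 without NCI-H2009), and CCNG2, an atypical cyclin, had the smallest p (1.34 ± 0.37, edgeR adjusted p 0.107).

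**Figure D3:**
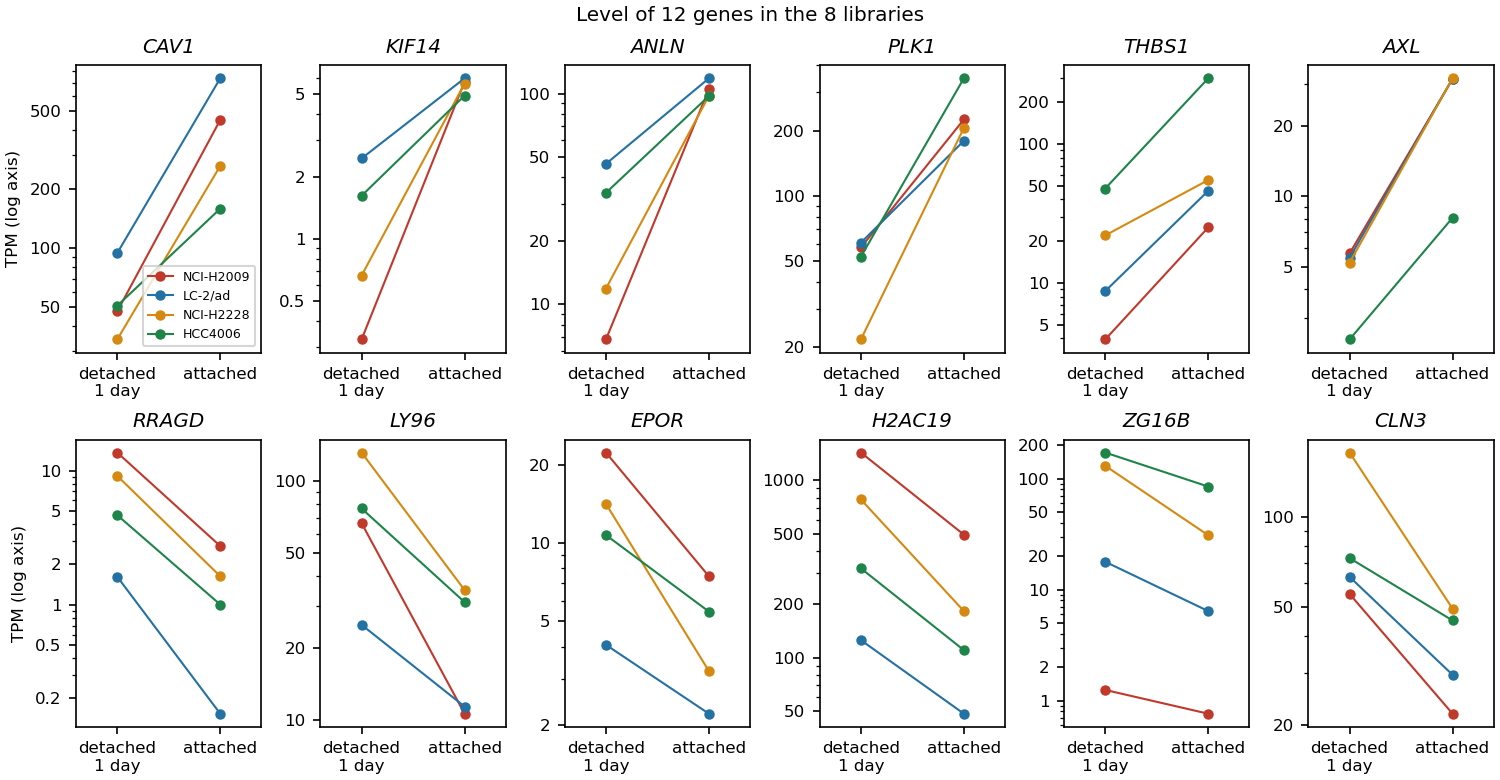
TPM (log axis, a scale of its own for each panel) of 12 genes in the 4 detached libraries (left) and the 4 attached libraries (right), with a line joining the libraries of each cell line. The upper row holds falls, such as CAV1 at 34.3 to 94.5 TPM in detached and 159 to 737 TPM in attached cells, and the lower row holds rises.

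Promoters of the falls were read for short motifs of cell cycle control, since mitotic genes share them. The windows run from 250 bases before to 50 bases after a RefSeq start site (300 bases, GRCh38.p14), and a window was found for 50 of the 59 falls and 18 of the 26 rises. Capitals mark matches, on either strand, of the cell cycle homology region TTTGAA, the CCAAT box, the E-box CACGTG, the TEAD site CATTCC, the AP-1 site TGANTCA and the CArG box. The letters were searched as written, and TCACGTGA, a longer E-box described for lysosomal genes, contains CACGTG. KIF14 and CAV1 are shown as leading falls of cell division and of caveolae, H2AC19 as the rise with the smallest p, and PLK1 and CLN3, picked after their values were seen, as a mitotic kinase and a lysosomal gene.
KIF14 (chr1:200620702-200621001, minus strand): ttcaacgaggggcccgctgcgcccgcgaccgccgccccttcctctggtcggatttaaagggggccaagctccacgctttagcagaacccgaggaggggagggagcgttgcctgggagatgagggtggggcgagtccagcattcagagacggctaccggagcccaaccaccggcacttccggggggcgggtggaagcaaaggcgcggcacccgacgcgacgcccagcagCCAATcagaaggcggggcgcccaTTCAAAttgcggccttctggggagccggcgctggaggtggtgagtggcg
PLK1 (chr16:23678639-23678938, plus strand): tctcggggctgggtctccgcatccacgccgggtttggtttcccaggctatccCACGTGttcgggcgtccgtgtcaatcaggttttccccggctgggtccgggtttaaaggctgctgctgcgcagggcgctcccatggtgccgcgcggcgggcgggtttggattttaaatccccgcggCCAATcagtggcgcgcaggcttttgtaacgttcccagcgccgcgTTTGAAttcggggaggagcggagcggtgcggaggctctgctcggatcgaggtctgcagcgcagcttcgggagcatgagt
CAV1 (chr7:116524759-116525058, plus strand): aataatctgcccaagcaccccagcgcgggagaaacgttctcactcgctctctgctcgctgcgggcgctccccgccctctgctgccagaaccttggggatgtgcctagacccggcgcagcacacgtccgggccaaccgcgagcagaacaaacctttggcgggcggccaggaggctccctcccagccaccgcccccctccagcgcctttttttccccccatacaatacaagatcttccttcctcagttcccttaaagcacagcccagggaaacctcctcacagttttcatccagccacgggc
H2AC19 (chr1:149850811-149851110, plus strand): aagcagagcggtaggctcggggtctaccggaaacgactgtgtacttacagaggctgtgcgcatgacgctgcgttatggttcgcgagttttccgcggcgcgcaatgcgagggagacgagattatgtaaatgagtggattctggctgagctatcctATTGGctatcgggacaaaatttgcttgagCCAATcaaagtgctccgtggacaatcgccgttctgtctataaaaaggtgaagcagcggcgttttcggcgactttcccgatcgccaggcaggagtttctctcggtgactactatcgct
CLN3 (chr16:28492033-28492332, minus strand): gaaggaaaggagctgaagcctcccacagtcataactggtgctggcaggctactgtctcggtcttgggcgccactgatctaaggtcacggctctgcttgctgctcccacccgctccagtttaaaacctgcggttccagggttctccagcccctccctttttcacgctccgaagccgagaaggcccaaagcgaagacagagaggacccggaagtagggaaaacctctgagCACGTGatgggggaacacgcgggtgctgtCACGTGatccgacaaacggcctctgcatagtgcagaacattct
In KIF14 the cell cycle homology region lies 1 to 6 bases after the start site, counted as 0, and a CCAAT box at -22 to -18. In PLK1 the homology region lies at -29 to -24 and a CCAAT box at -73 to -69, with an E-box at -198 to -193. CAV1 holds none of the searched motifs, H2AC19 holds a pair of CCAAT boxes at -96 to -92 and -67 to -63, and CLN3 holds a pair of E-boxes at -22 to -17 and 7 to 12. Windows of other leading genes were read and are not shown. Those of ARHGAP11A, also a leading fall of cell division, and of the rise TMEM198 hold none of the searched motifs. The window of the rise TMEM176B holds CCAAT boxes and a TEAD site. The window of PLK1 starts transcription 1233 bases from the 5′ end of the gene model in the table, and that of CLN3 3493 bases from it.

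The cell cycle homology region was found in 42% of the windows of the falls, in 0% of those of the rises and in 9.95% of 12337 windows of tested genes. The CCAAT box was found in 66% of the falls, 33.3% of the rises and 36.3% of all windows. In 6 lists of mitosis genes (kinases, kinesins, kinetochore, condensin and cohesin, cytokinesis, and cyclins with the anaphase-promoting complex), which hold 90 tested genes, the homology region was found in 60.3% of 78 windows. CACGTG was found in 32.6% of 46 windows of the lysosome lists, in 8% of the falls, in 11.1% of the rises and in 9.85% of all windows, and TCACGTGA in 17.4% of the lysosome lists and 1.78% of all windows. The TEAD site was found in 16% of the falls, 16.7% of the rises and 11% of all windows, and the AP-1 site in 6%, 0% and 4.88%. A match is a description of letters and was not tested.

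**Figure D4:**
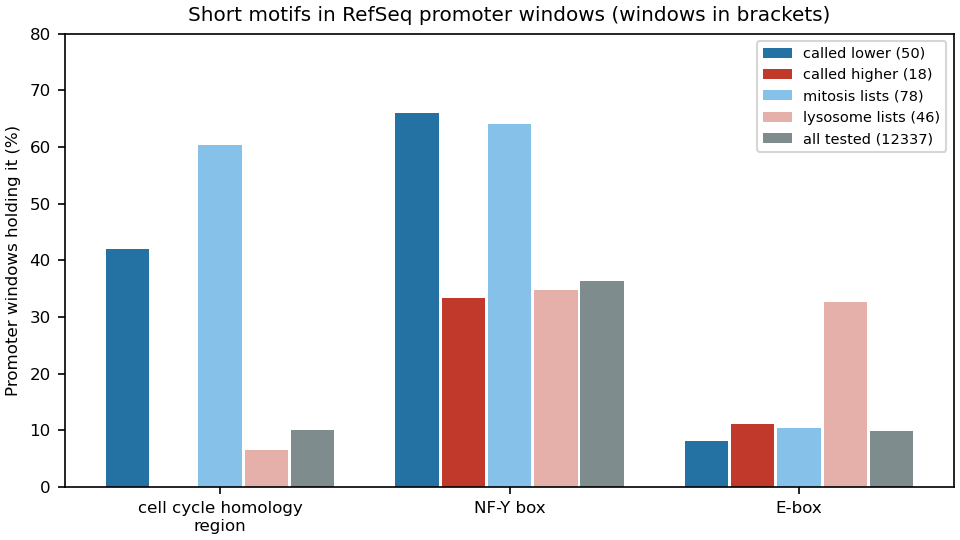
Share of RefSeq promoter windows that hold a motif (y axis, percent) for genes past the threshold and lower or higher after 1 day of detachment, for 2 groups of gene lists and for all tested genes. The homology region stands at 42% of the falls and 60.3% of the mitosis lists, against 9.95% of all windows, and the E-box at 32.6% of the lysosome lists.

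Some falls code for proteins of the nuclear envelope, the nuclear pore and import; they belong to no list and were put together after their values were seen. LMNB1, a B-type lamin, had 22, 48.4, 17.4 and 29.5 TPM in detached cells and 79.5, 103, 64.8 and 78.3 TPM in attached cells. LMNB2, the other B-type lamin, had 41.1, 18.2, 18.8 and 19.3 TPM in detached cells and 90.6, 43, 78.5 and 43.4 TPM in attached cells. For both lamins the 2 states were separate, and the log2 changes were -1.43 ± 0.25 and -1.33 ± 0.22. TMPO, a lamina-associated protein, had 24.6, 46.4, 23.1 and 18.6 TPM in detached cells and 70, 85.9, 88.8 and 33.6 TPM in attached cells.

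KPNA2, an importin of the classical nuclear import pathway, had 341, 380, 134 and 208 TPM in detached cells and 994, 957, 374 and 563 TPM in attached cells. Its difference was nearly the same in the 4 lines, between -1.34 and -1.16. NUP93, a scaffold nucleoporin, had 50.6, 55.6, 48.7 and 48.2 TPM in detached cells and 156, 85.9, 135 and 102 TPM in attached cells. NDC1, a membrane nucleoporin, and RANGAP1, the GTPase-activating protein of Ran, were also among the falls. Tubulin genes fell as well: TUBB had 254, 454, 394 and 448 TPM in detached cells and 727, 861, 853 and 843 TPM in attached cells, a log2 change of -0.97 ± 0.16, and TUBB4B had a log2 change of -1.17 ± 0.21. Tubulin genes have near-identical copies, so their split between copies is uncertain.

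The lists of the gene expression machinery held 1 call among 79 genes tested, and further falls with a role in chromatin were picked after their values were seen. SSRP1, a subunit of the FACT histone chaperone, had 17, 31.3, 31.5 and 33.4 TPM in detached cells and 58.7, 65.1, 64.3 and 65.1 TPM in attached cells, a log2 change of -1.05 ± 0.18. SRSF2, a splicing regulator, had 121, 187, 135 and 188 TPM in detached cells and 368, 358, 336 and 322 TPM in attached cells. Both genes were close to level among the attached lines, and SRSF2 overlaps MFSD11 on the other strand. The 19 spliceosome genes tested all had a log2 change below 0, 13 of them in each of the 4 lines, with a median of -0.30 and SRSF2 as the only call. SRSF3, a related splicing factor, stood at -0.92 ± 0.17 with an edgeR adjusted p of 0.0555.

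Ribosome biogenesis genes, which make and assemble ribosomal RNA, had a median of -0.67 and 17 of 20 members lower in the 4 lines. None passed in edgeR, and WDR12, part of the PeBoW complex for the large subunit, had the smallest p (-0.87 ± 0.22, adjusted p 0.0887). It had 38.3, 35.2, 33 and 32.2 TPM in detached cells and 105, 74.5, 69.1 and 50 TPM in attached cells. The median of the list was -0.44 without NCI-H2009. Genes for the ribosomal proteins themselves had a median of 0.14, or 0.04 without NCI-H2009. On the log2(TPM + 1) scale it was -0.05, and that scale shifted the median of all genes by -0.14. In the 4 lines 6 of 22 were higher and 1 lower, against 17.1% and 16.5% of all genes.

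CAV1, which codes for the coat protein of caveolae, had the largest fall among genes with a mean of at least 5 TPM in the higher state. It had 47.7, 94.5, 34.3 and 50.9 TPM in detached cells and 452, 737, 263 and 159 TPM in attached cells. The 2 states were separate, and the fall was smallest in HCC4006, where the attached level was also the lowest. Its log2 change was -2.52 ± 0.45 (edgeR adjusted p 0.0496) and -2.33 without NCI-H2009. The other caveolar genes did not pass: CAV2 averaged 41.5 ± 23.4 TPM in detached cells and 128 ± 74.5 TPM in attached cells (edgeR adjusted p 0.0687), and CAVIN1 39 ± 21.1 TPM and 104 ± 36.5 TPM (0.0881; SD, n = 4 each). Of the 7 caveolar genes tested 4 were lower in the 4 lines.

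Secreted and receptor genes of the cell surface were also among the falls. THBS1, the matrix glycoprotein thrombospondin 1, had 3.93, 8.75, 22 and 47.9 TPM in detached cells and 25.1, 46.1, 55.1 and 297 TPM in attached cells. Its levels overlapped between the states because the lines differ widely, but each line was lower by at least 1.29 on the log2 scale. AXL, a receptor tyrosine kinase of the TAM family, had 5.69, 5.45, 5.19 and 2.44 TPM in detached cells and 31.7, 31.8, 31.9 and 8.08 TPM in attached cells. NCI-H2009, LC-2/ad and NCI-H2228 were nearly equal to each other in both states, and HCC4006 was lower in both. NRG1, a ligand of ERBB3 and ERBB4, had 0.144, 0.435, 0.866 and 0.683 TPM in detached cells and 0.82, 2.72, 5.13 and 4.02 TPM in attached cells, a log2 change of -2.47 ± 0.39.

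P3H2, a collagen prolyl 3-hydroxylase, had 4.05, 1.04, 1.05 and 4.58 TPM in detached cells and 13.5, 10.9, 6.99 and 14.4 TPM in attached cells. It moved apart from its group, since 8 of 13 genes for collagen-modifying enzymes had a log2 change above 0 and their median was 0.51. PLK2, a stress-responsive kinase and p53 target, had 9.18, 46, 43.6 and 32.9 TPM in detached cells and 71, 109, 170 and 92.4 TPM in attached cells. It was the only call among 20 p53 targets, whose median was 0.12 and -0.09 without NCI-H2009. MT2A, a metallothionein that binds zinc and copper, had 502, 147, 182 and 431 TPM in detached cells and 2313, 436, 736 and 2466 TPM in attached cells. Its fall of 1.93 ± 0.21 on the log2 scale was alike in the 4 lines (-2.45 to -1.51), and the other metallothionein and iron genes held no call, with a list median of 0.40.

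The lists of adhesion and shape held 3 calls among 146 genes tested: CAV1, P3H2 and AXL. The YAP and TAZ targets had 13 of 20 members lower in the 4 lines and a median of -0.93. Actin and myosin genes had 11 of 18 lower in the 4 lines (median -0.58) and focal adhesion scaffolds 10 of 19 (median -0.40), with no call in edgeR. PXN, the focal adhesion adaptor paxillin, averaged 67.5 ± 7.25 TPM in detached cells and 142 ± 35.4 TPM in attached cells (SD, n = 4 each) and did not pass (edgeR adjusted p 0.0682). Integrin subunits (median -0.26) and desmosome and cadherin junction genes (median -0.13, or -0.08 without NCI-H2009) had 2 of 12 and 3 of 15 members lower in the 4 lines. Both counts are near the share of 16.5% over all genes. Tight junction genes had 8 of 15 higher in the 4 lines and a median of 0.38, among them TJP3 (1.75 ± 0.53) and CLDN7 (1.03 ± 0.27), while TJP1 stood at -0.73 ± 0.23; none passed in edgeR.

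Genes higher after 1 day came from several roles, and 7 of the 26 belong to a list. RRAGD codes for a Rag GTPase that brings mTORC1 to the lysosome when amino acids are present. It had 13.7, 1.62, 9.15 and 4.66 TPM in detached cells and 2.74, 0.154, 1.63 and 1 TPM in attached cells. The lines differ widely in their level, but each was higher when detached, by 1.12 to 2.67 on the log2 scale, and the fitted log2 change was 2.11 ± 0.35 (edgeR adjusted p 0.0496) and 1.94 without NCI-H2009. CLN3, a lysosomal membrane protein lost in a form of Batten disease, had 55.2, 63.1, 165 and 72.9 TPM in detached cells and 21.8, 29.5, 49.3 and 45 TPM in attached cells. The states of CLN3 did not overlap, but the neighboring entry AC138894.1, also among the rises, overlaps it on the same strand, so their counts are uncertain.

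The lysosomal genes around these calls were higher in most lines without passing alone. Of 26 genes for lysosomal hydrolases 23 were higher in the 4 lines, with a median of 1.00, or 0.75 without NCI-H2009. NEU1, the lysosomal sialidase, had 199, 97.3, 134 and 53.5 TPM in detached cells and 32.1, 45.5, 29.6 and 32 TPM in attached cells, which did not overlap (log2 change 1.80 ± 0.38, edgeR adjusted p 0.0692). GAA, which breaks down glycogen, had 85.1, 116, 129 and 85.8 TPM in detached cells and 30.7, 50, 58.8 and 58.8 TPM in attached cells (edgeR adjusted p 0.0682). The proton pump had 15 of 17 subunit genes higher in the 4 lines with a median of 0.54. The autophagy list had 13 of 20, with a median of 0.83, or 0.49 without NCI-H2009, and WIPI1, an early autophagosome protein, came nearest to passing (1.44 ± 0.27, edgeR adjusted p 0.0573).

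The immune and inflammatory lists held 2 calls among 111 genes tested, LY96 and PLA2G4C. LY96, the MD-2 subunit that lets TLR4 recognize endotoxin, had 66.7, 25, 132 and 76.8 TPM in detached cells and 10.6, 11.4, 35 and 31.2 TPM in attached cells. Detached LC-2/ad stood below attached NCI-H2228 and HCC4006, so the states overlap, and the log2 change of 1.96 ± 0.35 was 1.60 without NCI-H2009. CD14, the partner of this complex, averaged 19.7 ± 16.7 TPM in detached cells and 6.63 ± 6.96 TPM in attached cells (SD, n = 4 each) and did not pass (edgeR adjusted p 0.084). PLA2G4C, a phospholipase A2 that releases fatty acids from membranes, had 4.7, 9.13, 32.7 and 13.3 TPM in detached cells and 0.242, 1.22, 5.76 and 4.07 TPM in attached cells. Every line was higher, most so NCI-H2009 (4.12), and the fitted log2 change was 2.68 ± 0.43.

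EPOR, the erythropoietin receptor, had 22.3, 4.06, 14.2 and 10.7 TPM in detached cells and 7.45, 2.21, 3.22 and 5.45 TPM in attached cells, a log2 change of 1.68 ± 0.30. Its gene overlaps RGL3 on the same strand. PDK4, a kinase that shuts down the pyruvate dehydrogenase complex, had 4.47, 1.98, 0.674 and 1.72 TPM in detached cells and 1.36, 0.296, 0.073 and 0.531 TPM in attached cells. It stayed at a low level in every library, and its log2 change was 2.42 ± 0.43, or 2.62 without NCI-H2009. MAPK8IP2, a scaffold of the JNK pathway, had the largest log2 change of the rises (2.98 ± 0.46), with 3.40, 0.944, 1.20 and 4.72 TPM in detached cells and 0.342, 0.079, 0.252 and 1.35 TPM in attached cells.

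H2AC19 and H2AC18 code for the histone H2A and lie close together on chromosome 1, at 149851061 to 149851624 and 149842188 to 149842736. H2AC19 had 1434, 126, 780 and 319 TPM in detached cells and 494, 48.4, 183 and 110 TPM in attached cells. The level differs more between lines than between states, but the rise of 1.80 ± 0.17 on the log2 scale was alike in the 4 lines, from 1.43 to 2.25. H2AC18 had 200, 19.4, 88.7 and 41.9 TPM in detached cells and 87.6, 5.36, 32.2 and 16.2 TPM in attached cells. The copies are near-identical, so reads of either may count for the other. Among 18 replication-dependent histone genes tested 3 were higher in the 4 lines, near the share of 17.1% over all genes, and the median was 0.62, or 0.96 without NCI-H2009 and 0.42 with the GC and length trend removed.

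Other rises concern secretion and the endoplasmic reticulum. ZG16B, a secreted lectin of glandular epithelium, had 1.25, 17.9, 131 and 172 TPM in detached cells and 0.762, 6.41, 31 and 85 TPM in attached cells. SELENOM, a selenoprotein of the endoplasmic reticulum, had 172, 50.2, 136 and 203 TPM in detached cells and 73.7, 24.1, 35 and 109 TPM in attached cells. Each line was higher in both genes, while the lines kept their order of levels in ZG16B. UFC1, the conjugating enzyme of the ubiquitin-like modifier UFM1, had 408, 248, 242 and 241 TPM in detached cells and 185, 120, 140 and 142 TPM in attached cells. Its states did not overlap, and its log2 change was 1.11 ± 0.19.

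The remaining rises belong to no list. CHPF, a chondroitin polymerizing factor, had 274, 131, 324 and 323 TPM in detached cells and 112, 75.1, 130 and 209 TPM in attached cells. TMEM198, a membrane protein, had 7.48, 7.34, 1.62 and 5.77 TPM in detached cells and 0.674, 0.558, 0.467 and 1.69 TPM in attached cells. These 2 genes are neighbors on chromosome 2 that point away from each other, and their models share 147 bases at their starts. Use of strand in the counting is not given, so reads from the shared stretch cannot be told apart. MCEE, an epimerase of the propionate pathway (1.22 ± 0.22), RABGGTA, a subunit of the enzyme that lipidates Rab proteins (1.17 ± 0.19), PIGH, of the first step of GPI anchor synthesis (1.05 ± 0.17), and KBTBD4, an adaptor of a ubiquitin ligase (1.36 ± 0.20), were among the rises at the same edgeR adjusted p of 0.0496.

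Rises of less known function included TMEM176B, a membrane protein, which had 8.25, 6.14, 61 and 6.78 TPM in detached cells and 1.6, 1.77, 14 and 1.37 TPM in attached cells. AMN1 had 200.2, 73.7, 18.6 and 43.1 TPM in detached cells and 33.2, 28.3, 14.3 and 14 TPM in attached cells. MAGIX, a protein with a PDZ domain, had 23.1, 25.7, 19.8 and 77 TPM in detached cells and 4.21, 9.27, 7.83 and 40.5 TPM in attached cells. Each was higher in the 4 lines, with overlap between the states, and the log2 changes were 2.25 ± 0.40, 1.74 ± 0.31 and 1.66 ± 0.26. TTC39A (1.29 ± 0.23), TMC6 (1.18 ± 0.21), TCEA3 (0.95 ± 0.17) and C4orf3 (0.86 ± 0.15) were the rises not described elsewhere. The falls not described elsewhere were ZNF619, which had the largest log2 change and reached 1.32 TPM at most, PGBD1, UQCC3, SAPCD2, SAAL1, CCDC85C, ANP32E, LRR1, TTC4, CPSF4, PM20D2 and RBM14, with log2 changes between -3.16 and -0.99. In all, 15 of the 26 rises and 21 of the 59 falls overlap another gene model that reached 1 TPM.

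Several lists without any call had medians well above that of all genes. The 17 secretory airway genes tested all had a log2 change above 0, 11 of them in each line, with a median of 1.54 (1.47 without NCI-H2009). WFDC2, a secreted protease inhibitor of airway epithelium, had 2581, 1876, 1136 and 910 TPM in detached cells and 249, 614, 252 and 575 TPM in attached cells. The states did not overlap, but the difference ran from 0.72 to 3.74 between lines and the edgeR adjusted p was 0.0825. MHC class II presentation genes had a median of 1.25 with 7 of 10 higher in the 4 lines, and CD74, the invariant chain, stood at 1.43 ± 0.40 (edgeR adjusted p 0.107). MHC class I genes had 11 of 16 higher in the 4 lines (median 0.78) and complement genes 8 of 16 (median 0.92).

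Levels of other markers and of mitochondrial RNA moved with these groups. The median of the 6 tested leukocyte markers was 1.72, or 1.26 without NCI-H2009, with the defining markers at or near 0 as given above. Transcripts of the mitochondrial genome made up 1.28%, 3.39%, 1.76% and 1.94% of TPM in detached cells and 1.03%, 1.56%, 0.526% and 1.49% in attached cells, a higher share in each line. Of the 13 mitochondrial transcripts 11 were higher in the 4 lines, with a median of 0.86. Nuclear genes of the respiratory chain had a median of 0.13, or 0.01 without NCI-H2009. On the log2(TPM + 1) scale it was -0.02, and that scale shifted the median of all genes by -0.14. The part of mitochondrial RNA in the other results was not tested.

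**Figure D5:**
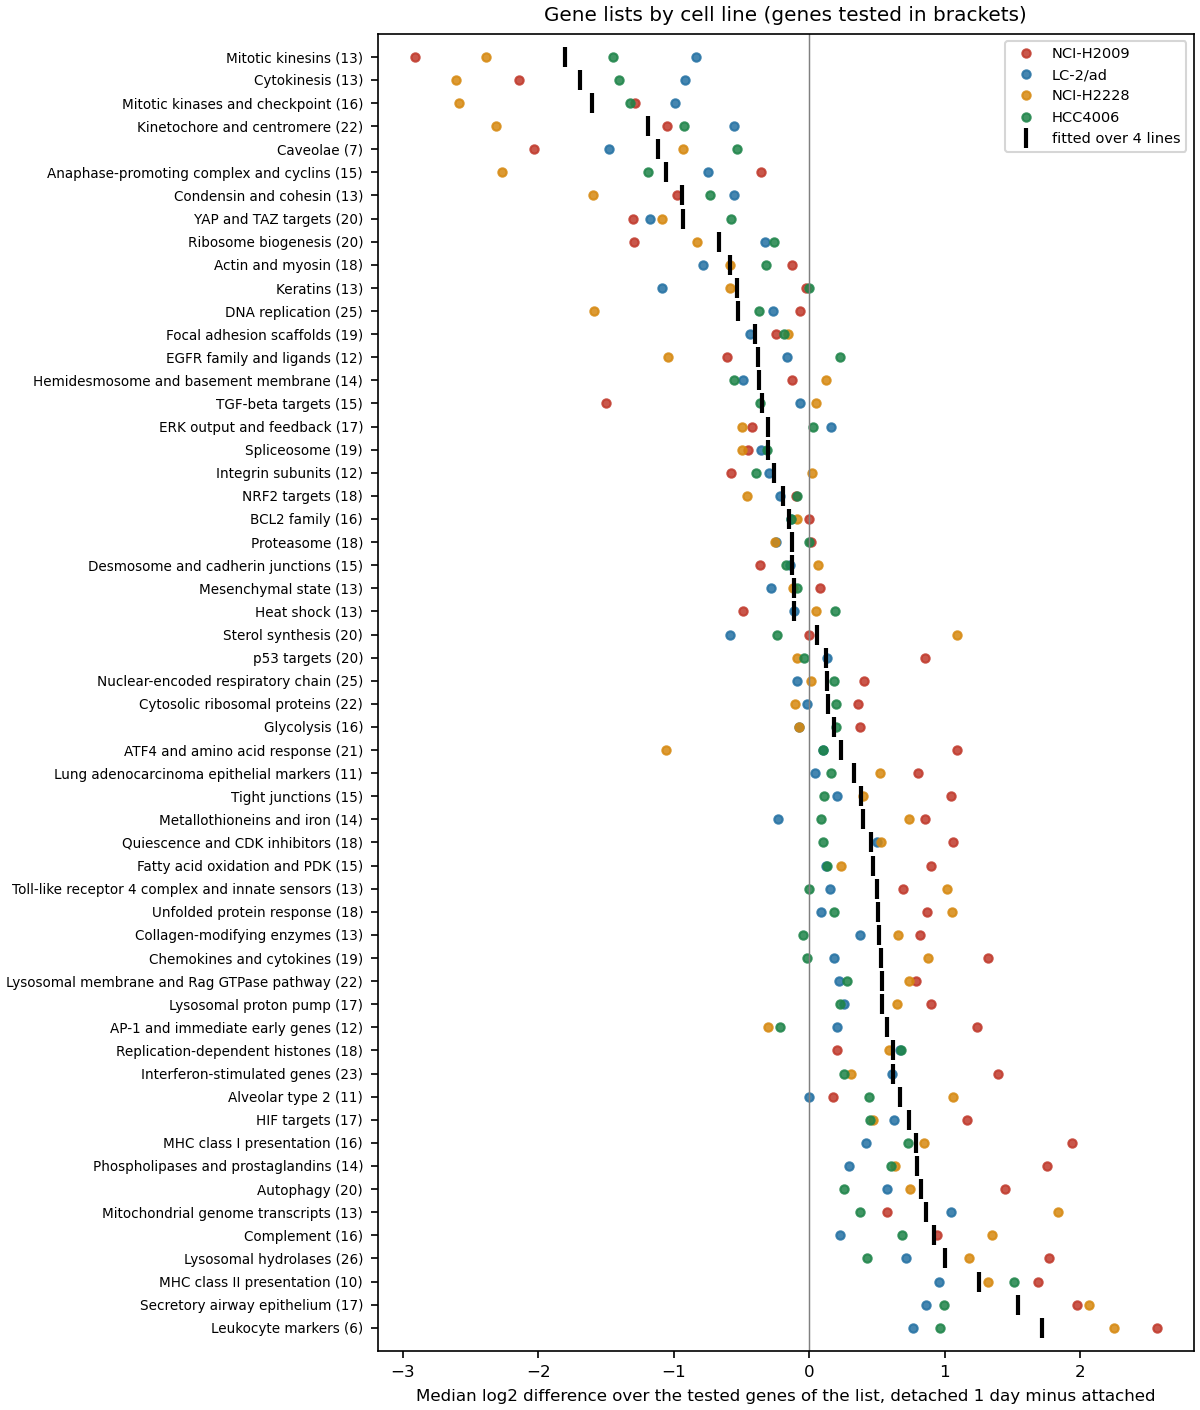
Median log2 difference (x axis, detached 1 day minus attached) over the tested genes of each list with at least 5 of them (rows), as colored points for the 4 lines and a black bar for the fit over the lines. Cell division lists stand at the top with medians down to -1.81, and secretory airway epithelium at 1.54 and leukocyte markers at 1.72 stand at the bottom.

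Stress and signaling lists gave medians that differed between lines. HIF targets had a median of 0.73, with 1.16 in NCI-H2009 and 0.45 to 0.62 elsewhere, and 0.24 in the fit without NCI-H2009. For AP-1 and immediate early genes the median of 0.57 was 0.01 without NCI-H2009. For ATF4 and amino acid response genes it was 0.24, with 1.09 in NCI-H2009 and -1.06 in NCI-H2228, and -0.24 without NCI-H2009. The unfolded protein response list kept a median of 0.50 (0.45 without NCI-H2009), with 10 of 18 genes higher in the 4 lines and DNAJB9, a chaperone of the endoplasmic reticulum, at 1.24 ± 0.26 (edgeR adjusted p 0.069). BCL2 family genes, which decide between survival and apoptosis, had a median of -0.15, or 0.03 without LC-2/ad. In the 4 lines 3 of 16 were higher and 4 lower, against 17.1% and 16.5% of all genes. BCL2L11, the BH3-only protein BIM that is known for its part in anoikis, stood at 0.87 ± 0.24 (edgeR adjusted p 0.104).

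In absolute level, the abundant transcripts with the same sign in the 4 lines gave the largest shifts of TPM, and MT2A was the only one of these 12 that passed. The largest rises in mean TPM were those of MT-RNR2, B2M, CSTB, MT-CO3, SQSTM1 and MT-CO2. B2M, the light chain of MHC class I, averaged 7413 ± 3868 TPM in detached cells and 4690 ± 2261 TPM in attached cells, and SQSTM1, the autophagy receptor p62, 2887 ± 3380 TPM and 1440 ± 1437 TPM (SD, n = 4 each). The largest falls were those of TUBA1B, S100A10, KRT7, MT2A, KRT18 and PFN1. TUBA1B, an alpha tubulin, had 1320, 2165, 645 and 1478 TPM in detached cells and 4655, 3943, 2980 and 2815 TPM in attached cells, which did not overlap, with an edgeR adjusted p of 0.0555. KRT7 averaged 1517 ± 862 TPM in detached cells and 3201 ± 1652 TPM in attached cells (edgeR adjusted p 0.105).

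The 4 lines shared part of their response and differed in its size. Across the 17395 genes tested, differences of 2 lines correlated between 0.27 and 0.32 (Pearson, a description, since genes are not replicates and each library pair shares its processing). A difference of at least 2-fold was found in 3182 genes higher and 3533 lower in NCI-H2009, 2583 and 1785 in NCI-H2228, 1550 and 1348 in LC-2/ad, and 1218 and 1192 in HCC4006. With 1 library per line and state these counts carry no test. Of the 59 falls the largest difference was in NCI-H2228 for 24 genes and in NCI-H2009 for 23, and of the 26 rises it was in NCI-H2009 for 18. The same sign in all 4 lines was found for 2981 genes higher (17.1%) and 2873 genes lower (16.5%).

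The genes with the largest differences within each line are given as values without a test. In NCI-H2009, DEPP1, a target of FOXO factors linked to autophagy, had 328 TPM detached and 5.02 TPM attached, and SMC4, a condensin subunit, had 0.67 TPM detached and 128 TPM attached. In the other 3 lines the SMC4 difference lay between -1.79 and -0.60, and over the 4 lines it did not pass (edgeR adjusted p 0.222). In NCI-H2228, FOSL1, an AP-1 subunit, had 29.5 TPM detached and 614 TPM attached, and EREG, an EGFR ligand, had 7.45 and 100.3 TPM. In LC-2/ad, S100A8, a subunit of calprotectin, had 45.2 TPM detached and 3.32 TPM attached, and the annexin copies ANXA8 and ANXA8L1, whose reads are hard to separate, were both lower. In HCC4006, CEACAM5, a cell surface glycoprotein, had 153 TPM detached and 30.4 TPM attached.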

How the data were processed

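RNA was measured with the SMART-Seq v4 PLUS kit after RNeasy Mini extraction, per the labels' protocols. The authors deposited TPM and estimated counts per gene. The genome build was GRCh38, per the submitters' processing notes. Which aligner, quantifier and annotation release were used, and whether counting used strand, is not given in the sources used here. Of the deposited estimated counts above 0, 31.5% were not whole (tolerance 1e-06), and counts were rounded before testing.

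Genes were filtered with filterByExpr, scaled by TMM and fitted with edgeR 4.0.16 (robust quasi-likelihood, R 4.3.3) over all 12 libraries, with cell line as a block and state as the term of interest. The 4 libraries of day 7 entered the filter, the line terms and the spread (6 residual degrees of freedom, biological coefficient of variation 38.7%). P-values were adjusted by Benjamini-Hochberg over 17395 genes at a threshold of 0.05. Each SE is the log2 change divided by the root of F and restates the test. Differences of single lines are log2 CPM with a prior count of 2 and have no test. The lines pair the samples: deviations from the group means correlated at 0.73 to 0.82 within a line and at -0.13 or below between lines. P-values rest on how unlike the differences between states are across the 4 cell lines, since the block removes each line's own level. Spread between cultures of a line is part of this and cannot be told apart from it. GC content and length came from the longest GENCODE transcript, and promoter windows from RefSeq.

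Alternatives used DESeq2 1.42.0, limma 3.58.1 on log2(TPM + 1) and log2(TPM + 0.1), other filters, and omission of libraries or lines; their effect is given below. The test was first run on simulated data with known changes. Members and lists were chosen with earlier results of these data known. The rule for named genes took the 15 largest falls and 15 largest rises past the threshold with a mean of at least 5 TPM in the higher state, others past it by role, the list members with the smallest p, and those with the largest shifts in TPM or within a line.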

Additional observations from a re-analysis of the deposited data

Results flagged for a closer look

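Of 88 sets of 4 line values examined for a line that lies far from the others, 2 had one. This is a smaller share than the 1 in 20 or so that chance gives. The difference of CAV1 in HCC4006 was -1.60, against -2.98 to -2.75 in the other lines. The median of the fatty acid oxidation and PDK list in NCI-H2009 was 0.894, against 0.12 to 0.23 elsewhere.

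The other results are genes whose lines moved in opposite directions, and the difference between lines was not tested, since each line has 1 library per state. The spread between the highest and the lowest line difference was 7.22 on the log2 scale for CGB8, a chorionic gonadotropin subunit with near-identical copies, where NCI-H2228 alone was higher, at 0.15 TPM detached and 0 TPM attached. It was 7.05 for CYP24A1, the enzyme that inactivates vitamin D, where NCI-H2228 alone was higher, at 1.2 TPM detached and 0.236 TPM attached. For HP, which codes for haptoglobin, it was 6.71, with a difference of 3.62 in NCI-H2228 and -3.09 in LC-2/ad, where the levels were 0 TPM detached and 0.424 TPM attached. For GRAMD1B, a sterol transfer protein, it was 6.07, with the lowest value in HCC4006 (-3.70), at 0 TPM detached and 0.339 TPM attached. For CEMIP, a hyaluronan-binding protein, it was 6.06, with -3.34 in LC-2/ad, at 0.005 TPM detached and 0.131 TPM attached, and 2.69 to 2.72 in the other lines. For SUSD3 it was 5.95, with 3.48 in NCI-H2009 and -2.47 in NCI-H2228, at 0 TPM detached and 0.337 TPM attached. For HBEGF, an EGFR ligand, it was 5.38, with 1.67 in HCC4006 and -3.71 in NCI-H2228. For ARTN, a ligand of the GDNF family, it was 5.38, with 2.56 in NCI-H2009 and -2.82 in NCI-H2228, at 0 TPM detached and 1.01 TPM attached.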

How the results depend on the processing

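The number of genes past the threshold depended on the fit, and the cause was not tested. The 85 calls (26 higher, 59 lower) were 2 (1 and 1) with DESeq2 size factors, 1695 (944 and 751) with DESeq2's Wald test, 265 (115 and 150) with no filter, 225 (44 and 181) with limma on log2(TPM + 1) and 223 (46 and 177) on log2(TPM + 0.1), and 133 (37 and 96) with the GC and length trend removed together with the block. No gene passed in edgeR in the 8 libraries alone (3163 at an unadjusted p of 0.05) or without the replicate block (825). All 85 genes kept their sign in both, which follows from their same sign in each line. With a mean of at least 1 TPM as the filter 106 genes passed (34 and 72). Leaving out 1 library or line gave 0 to 6 calls (0 to 3 higher, 0 to 3 lower), with 6 without the attached LC-2/ad library and 0 without any whole line. A state left with 3 libraries is assumed to vary like the others. The TPM scales shifted the median of all genes by -0.14 and -0.15. Of the values of named genes under an alternative, 453 stayed on their side of the threshold, 584 no longer passed, 13 newly passed and none changed sign.

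With 1 library per line and state, a line's own response cannot be told from the spread between cultures.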

Other observations

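Over 303 pathway names in the deposited annotation with 15 to 300 tested genes, 129 had a median log2 change below 0 and 174 above 0. The lowest medians were those of homologous recombination (-0.38), DNA replication (-0.36) and the cell cycle (-0.36). The highest were those of autoimmune thyroid disease (1.26), allograft rejection (1.25) and graft-versus-host disease (1.25). These medians carry no test.

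Further lists had values not given above. Alveolar type 2 genes had 10 of 11 members with a log2 change above 0, 3 of them in each of the 4 lines, and a median of 0.67. Interferon-stimulated genes had 11 of 23 higher and 2 lower in the 4 lines, with a median of 0.62, or 0.41 without NCI-H2009. NRF2 targets had 5 of 18 lower and 2 higher in the 4 lines, with a median of -0.19. None of the genes in these 3 lists passed in edgeR.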
